A study of Mus musculus with 16 samples.

Results

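The 45 genes described here encode the machinery of autophagy and of the lysosome, and they were followed in the livers of 16 mice. They were taken as a fixed list of mouse symbols, covering initiation, conjugation, cargo receptors, TFEB, TFE3 and lysosomal proteins, and each symbol was matched through its Ensembl identifier. All 45 were found among the 55416 genes listed in the count files, and all 45 were among the 14770 genes that passed the filter on low counts. The members were sorted into 8 roles: 5 genes of the initiation kinase complex, 5 of the lipid kinase complex, 6 of membrane supply and PI3P binding, 11 of conjugation, 5 of the Atg8 family, 6 cargo receptors, 2 transcription factors and 5 lysosomal genes.

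The study crossed an adenovirus with a drug in wild-type C57BL/6J mice, a standard laboratory strain, at 8 weeks of age, so every liver in every group had received an adenovirus. The Ad-FAT10 Pema livers came from mice given the Ad-FAT10 virus and pemafibrate, and the Ad-FAT10 CMC livers from mice given the same virus and the vehicle CMC. The Ad-CTRL Pema and Ad-CTRL CMC livers came from mice given the control virus Ad-CTRL and the same treatments. The viruses went into the tail vein at an equal number of genome copies, and 4 days later the mice received 1 mpk of pemafibrate, an agonist of the lipid-sensing nuclear receptor PPARα, or CMC by gavage, at 18 h and again at 5 h before the livers were removed, with 5 h of fasting. FAT10 is a ubiquitin-like protein that can be attached to other proteins and is encoded in the mouse by Ubd. Each group had 4 livers from separate mice. The effect of FAT10 and of any difference in vector load or in the host response to the vector cannot be told apart in this design, because the viruses differed and no group went without one.

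Autophagy encloses part of the cytoplasm in a double membrane, the autophagosome, and delivers it to the lysosome for digestion. The ULK kinase complex starts the process, the class III lipid kinase complex marks the growing membrane with PI3P, and a pair of ubiquitin-like conjugation systems attach the Atg8 proteins (LC3 and GABARAP) to the membrane, where they bind the receptors that hold the cargo. In the liver, autophagy is known as a fasting response that recycles proteins, mitochondria and lipid droplets. The transcription factors TFEB and TFE3 and the nuclear receptor PPARα are known to act on genes of this pathway.

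Poly(A)-selected RNA was sequenced, and the deposited values were whole-number counts per gene with totals of 18663498 to 28898229 per library. Levels are given in CPM, a gene's count relative to its library's total, after TMM scaling, which sets libraries to the same typical gene. A count of 0 would have allowed up to 3 counts, or 0.104 to 0.161 CPM, for counting error only. Ubd was at 545.8, 442.4, 391.3 and 459.6 CPM in Ad-FAT10 Pema livers and at 110.5, 166.6, 339.3 and 330.2 CPM in Ad-FAT10 CMC livers, against 21.6, 47.8, 26.5 and 14.2 CPM in Ad-CTRL Pema livers and 15.2, 8.64, 12.0 and 9.00 CPM in Ad-CTRL CMC livers. Every Ad-FAT10 liver was above every Ad-CTRL liver, and the counts do not separate the vector's transcript from the mouse gene's own. Within Ad-FAT10, every Pema liver (391.3 CPM or more) was above every CMC liver (339.3 CPM or less). The Ad-FAT10 groups therefore differed in Ubd level as well as in treatment, in every comparison that uses both. The part of this difference in the members' changes was not tested. The 45 members together held 0.527% to 0.555% of the counts in Ad-FAT10 Pema livers and 0.569% to 0.583% in Ad-FAT10 CMC livers, against 0.469% to 0.505% in Ad-CTRL Pema livers and 0.499% to 0.526% in Ad-CTRL CMC livers. No marker of hepatocytes, Kupffer cells, macrophages, neutrophils, endothelial cells or stellate cells was at 0 in any group, and hepatocyte markers summed to 49415 CPM or more in every liver. In whole liver, fewer cells of a type and less RNA per cell cannot be told apart.

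Pemafibrate changed named members in each direction in Ad-CTRL livers. The LC3 gene Map1lc3a, the GABARAP gene Gabarapl2, the mitophagy receptors Bnip3 and Bnip3l, the receptor Optn and the conjugation gene Atg12 rose, while the initiating kinase gene Ulk1, the lipid kinase subunits Uvrag and Atg14, the PI3P-binding gene Wipi1 and the protease gene Ctsl fell. In all, 9 of 45 members were higher, where 16.2% of all genes tested were higher, and 6 were lower, where 14.4% were lower. Members called therefore made up 33.3% of the list, against 30.6% of all genes, and the median log2 change of the members was 0.06 against -0.01 for all genes. Calls rest on an adjusted p under 0.05 in edgeR's quasi-likelihood test over all 14770 genes. Every log2 change is given with its standard error, taken as its size divided by the square root of the F statistic. In 17 members the 4 Pema livers did not overlap the 4 CMC livers, where 30.6% of all genes did not overlap.

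Pemafibrate changed members in each direction in Ad-FAT10 livers as well. All 5 members that rose there, Atg12, Bnip3, Gabarapl2, Map1lc3a and Optn, were among the 9 that rose in Ad-CTRL livers (55.6% of those 9). The 7 that fell were Atg13, Atg14, Ctsl, Ulk1, Ulk2, Uvrag and Wipi1, of which 5 (71.4% of those 7, and 83.3% of the 6 lower in Ad-CTRL livers) were lower in Ad-CTRL livers as well. These comparisons share no library, but their spread came from the same fit of all 16 libraries. The same overlap over all genes is not given. The 5 higher members stand beside 12.9% of all genes that were higher, and the 7 lower members beside 12.5% that were lower. The members called made up 26.7% of the list against 25.4% of all genes, and 16 members had groups that did not overlap, where 25.4% of all genes did not overlap. The median change was -0.05 for the members and -0.01 for all genes.

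Ad-FAT10 livers had lower levels of many members than Ad-CTRL livers under each treatment. Under CMC, 16 of 45 members were lower (35.6%), where 20.2% of all genes were lower, and 2 were higher, where 22.5% of all genes were higher. Under Pema, 20 members were lower (44.4%), where 20.5% of all genes were lower, and 1 was higher, where 21.2% were higher. The lower members included all 5 Atg8 genes, the mitophagy receptors Bnip3 and Bnip3l, the E2-like enzyme gene Atg3, the LC3 protease gene Atg4d, the kinase gene Ulk2 and the lysosomal membrane gene Lamp2. Members called made up 40% of the list under CMC and 46.7% under Pema, against 42.6% and 41.7% of all genes. Of the 16 lower under CMC, 15 were also lower under Pema (93.8% of 16 and 75.0% of 20). Again no library was shared, but the spread came from the same fit of all 16 libraries, and the same overlap over all genes is not given. In 16 members under CMC and 19 under Pema the groups did not overlap, where 38.2% and 36.9% of all genes did not overlap. The number higher under CMC was 1 without Ad-CTRL CMC replicate 3 and 4 without Ad-CTRL CMC replicate 4, and under Pema it was 2 without Ad-FAT10 Pema replicate 1 and 0 without Ad-CTRL Pema replicate 4. The median change of the members was -0.14 under CMC and -0.22 under Pema, against -0.01 and -0.02 for all genes.

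These Ad-FAT10 directions depend on the scaling. When libraries were scaled to their total counts, the median change of all genes shifted by 0.29 (CMC) and 0.36 (Pema) on the log2 scale towards Ad-FAT10, and the share of called genes that were higher became 85.7% and 89.7%, against 52.7% and 50.9% with TMM. The median change of the members was then 0.15 and 0.14, which lay below the all-gene median by 0.13 and 0.20. Of the 16 members lower under CMC, 15 still had a negative change and 6 were still called lower. Of the 20 lower under Pema, 17 were still negative and 6 still called lower, and all 16 and all 20 lay below the all-gene median. In the virus comparisons, lower therefore means lower relative to the typical gene. For the drug, total-count scaling moved the share of called genes that were higher in Ad-CTRL livers to 39.5%, against 52.8% with TMM, and all 15 members called there kept their sign.

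**Figure D1:**
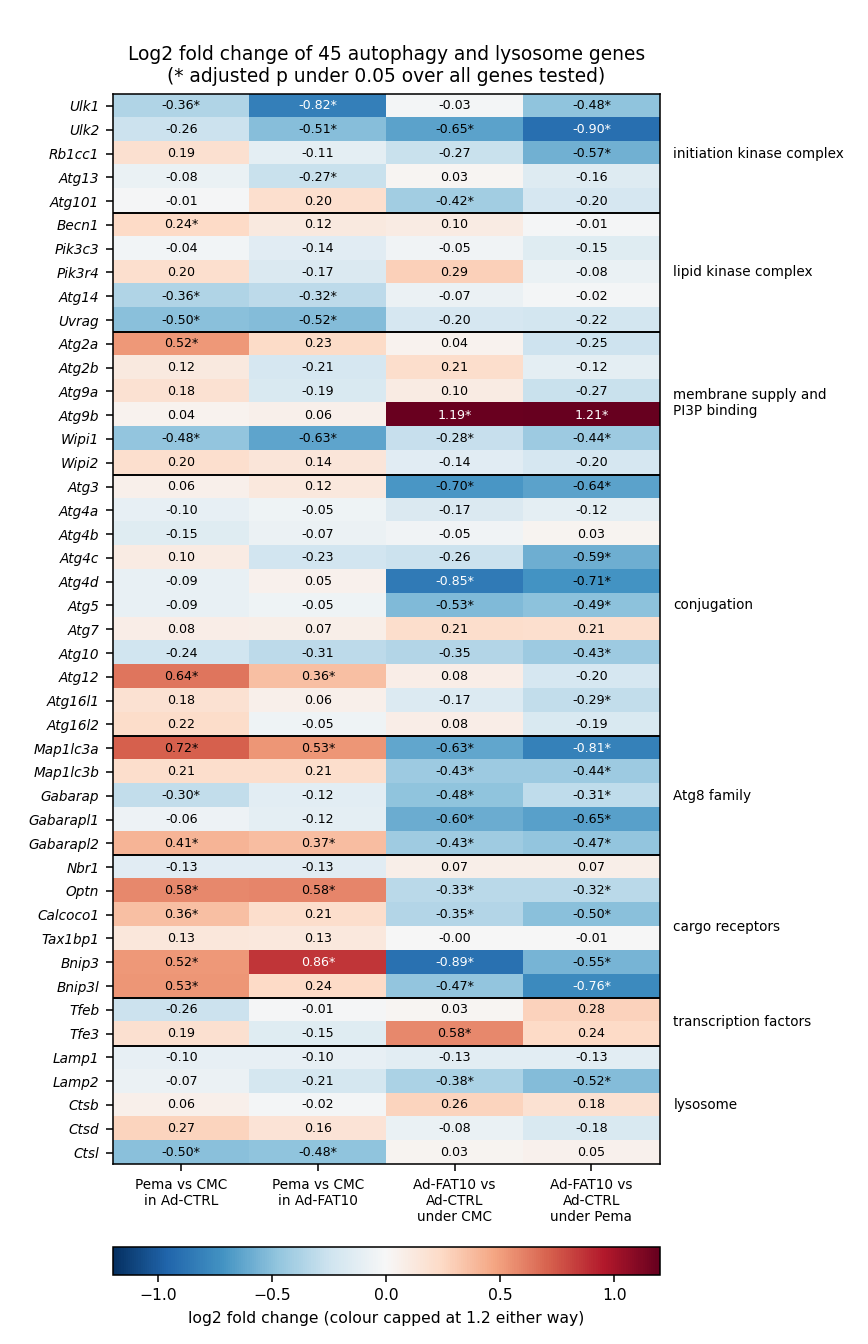
Log2 fold change of each of the 45 members (rows, grouped by role) in the 4 comparisons (columns), with colour and printed value from TMM-scaled counts and an asterisk where the adjusted p was under 0.05. The 5 Atg8 rows are negative in the last columns, with asterisks throughout, where total-count scaling makes Gabarap 0.05 under Pema; Bnip3, Optn and Map1lc3a are positive in the first columns.

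Cell type markers moved with these groups, and their part in the members' changes was not tested. A change in the regulation of the marker genes cannot be told apart here from a change in cell composition. The 11 hepatocyte markers measured summed to 49415 to 70297 CPM in Ad-FAT10 Pema livers and 67226 to 87207 CPM in Ad-FAT10 CMC livers, against 77915 to 108967 CPM in Ad-CTRL Pema livers and 98367 to 126268 CPM in Ad-CTRL CMC livers. Of the 11, 7 and 8 were lower with pemafibrate in Ad-CTRL and Ad-FAT10 livers, and 6 and 7 were lower in Ad-FAT10 livers under CMC and Pema. The 10 macrophage and monocyte markers summed to 405 to 829 CPM and 589 to 729 CPM in Ad-FAT10 Pema and CMC livers, against 257 to 356 CPM and 259 to 350.3 CPM in Ad-CTRL Pema and CMC livers, and 9 of 10 were higher in Ad-FAT10 livers under each treatment. The 9 neutrophil markers summed to 17.7 to 26.3 CPM and 38.0 to 118 CPM in Ad-FAT10 Pema and CMC livers, against 6.19 to 9.83 CPM and 7.97 to 16.1 CPM in Ad-CTRL Pema and CMC livers. Of the 6 neutrophil markers that passed the filter, 6 were lower with Pema in Ad-FAT10 livers. Of 8 Kupffer cell markers, 5 were lower in Ad-FAT10 livers under CMC and 6 under Pema, with 1 higher in each. Their sums overlapped between viruses, at 410 to 519 CPM and 487 to 751 CPM in Ad-FAT10 Pema and CMC livers. In Ad-CTRL Pema and CMC livers they were 456 to 558 CPM and 531 to 636 CPM. Of 6 endothelial markers 4 were lower in each. Of 6 stellate cell markers 2 were lower in Ad-FAT10 livers under CMC, and under Pema 2 were higher and 1 lower. Mitochondrial genes held 3.15% to 5.96% of the counts in Ad-FAT10 Pema livers and 4.59% to 5.61% in Ad-FAT10 CMC livers, against 5.46% to 7.21% in Ad-CTRL Pema livers and 5.82% to 8.76% in Ad-CTRL CMC livers. The Ad-FAT10 and Ad-CTRL livers did not overlap in this share under CMC and did under Pema. Its part in the members' changes was not tested.

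Among the initiation kinases, Ulk1, the gene of the kinase that starts autophagosome formation, fell with pemafibrate in both viruses. Ulk1 was at 67.8, 58.5, 61.3 and 60.1 CPM in Ad-FAT10 Pema livers and 121, 112, 96.8 and 106 CPM in Ad-FAT10 CMC livers, against 72.5, 87.1, 95.8 and 90.0 CPM in Ad-CTRL Pema livers and 108, 96.8, 111 and 128 CPM in Ad-CTRL CMC livers. The 4 Ad-FAT10 Pema livers were the lowest of the 16 and overlapped no other group, and the Ad-CTRL Pema livers lay below all Ad-CTRL CMC livers. Its log2 change with Pema was -0.82 ± 0.10 (adjusted p = 1.54e-05) in Ad-FAT10 livers and -0.36 ± 0.10 (adjusted p = 0.0119) in Ad-CTRL livers. Ad-FAT10 livers differed from Ad-CTRL livers by -0.48 ± 0.10 (adjusted p = 0.00136) under Pema and -0.03 ± 0.10 (adjusted p = 0.859) under CMC. With total-count scaling those values were -0.11 and 0.26, the first no longer called and the second called in the other direction.

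Ulk2, the gene of a related kinase, was lower in Ad-FAT10 livers under each treatment. Its levels were 47.9, 38.1, 30.3 and 37.5 CPM in Ad-FAT10 Pema livers and 69.8, 59.1, 46.5 and 43.9 CPM in Ad-FAT10 CMC livers, against 71.7, 65.5, 75.6 and 74.0 CPM in Ad-CTRL Pema livers and 84.7, 81.3, 91.6 and 85.1 CPM in Ad-CTRL CMC livers. All 8 Ad-FAT10 livers lay below all Ad-CTRL livers of the same treatment, while the Pema and CMC livers overlapped within Ad-FAT10. The change between viruses was -0.90 ± 0.14 (adjusted p = 8e-05) under Pema and -0.65 ± 0.14 (adjusted p = 0.00119) under CMC. Pemafibrate lowered Ulk2 in Ad-FAT10 livers, with a log2 change of -0.51 ± 0.14 (adjusted p = 0.0102), a call that was lost when only those 8 libraries were fitted (adjusted p = 0.0572), and gave -0.26 ± 0.14 (adjusted p = 0.175) in Ad-CTRL livers.

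Atg13, the regulatory subunit of the same complex, had 55.2, 53.1, 45.5 and 49.8 CPM in Ad-FAT10 Pema livers and 62.8, 65.9, 56.0 and 60.1 CPM in Ad-FAT10 CMC livers, against 52.4, 58.2, 61.4 and 55.0 CPM in Ad-CTRL Pema livers and 61.1, 52.5, 63.2 and 63.4 CPM in Ad-CTRL CMC livers. The Ad-FAT10 Pema livers lay below all Ad-FAT10 CMC livers, with Ad-CTRL livers spread across both. It fell with Pema in Ad-FAT10 livers, with a log2 change of -0.27 ± 0.09 (adjusted p = 0.0308) and gave -0.08 ± 0.09 (adjusted p = 0.538) in Ad-CTRL livers. The Ad-FAT10 call was lost without Ad-FAT10 Pema replicates 3 or 4 or Ad-FAT10 CMC replicates 1 or 2 (adjusted p = 0.0686 to 0.116), in a fit blocked on replicate number (adjusted p = 0.0541), with only the groups compared (adjusted p = 0.0563) and without the filter on low counts (adjusted p = 0.122). Rb1cc1, which encodes the scaffold FIP200, averaged 42.9 ± 7.29 CPM in Ad-FAT10 Pema livers and 63.7 ± 8.39 CPM in Ad-CTRL Pema livers (SD, n = 4 each), a log2 change of -0.57 ± 0.14 (adjusted p = 0.00283). That call was lost with total-count scaling (-0.22, adjusted p = 0.176), and Rb1cc1 was not called elsewhere. Atg101, the partner of Atg13, averaged 25.9 ± 2.25 CPM in Ad-FAT10 CMC livers and 34.7 ± 1.12 CPM in Ad-CTRL CMC livers (SD, n = 4 each), a log2 change of -0.42 ± 0.09 (adjusted p = 0.001). That call was lost with total-count scaling (-0.13, adjusted p = 0.256), and Atg101 was not called elsewhere.

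In the lipid kinase complex, Uvrag and Atg14, which encode the alternative partners of Beclin 1, fell with pemafibrate in both viruses. None of its 5 members was called between viruses, where 41.7% (Pema) and 42.6% (CMC) of all genes were called. Uvrag was at 28.4, 25.6, 24.6 and 28.3 CPM in Ad-FAT10 Pema livers and 42.0, 41.9, 36.9 and 32.6 CPM in Ad-FAT10 CMC livers, against 30.9, 29.9, 29.5 and 34.1 CPM in Ad-CTRL Pema livers and 41.6, 43.4, 47.2 and 43.5 CPM in Ad-CTRL CMC livers. Every Pema liver of Ad-FAT10 lay below every CMC liver of Ad-FAT10, and the same held within Ad-CTRL. The change was -0.52 ± 0.09 (adjusted p = 0.000316) in Ad-FAT10 livers and -0.50 ± 0.09 (adjusted p = 0.000349) in Ad-CTRL livers. Atg14, which directs the kinase to sites of autophagosome formation, had 18.7, 18.5, 16.6 and 19.4 CPM in Ad-FAT10 Pema livers and 25.7, 22.7, 22.4 and 20.2 CPM in Ad-FAT10 CMC livers, against 18.9, 19.4, 18.4 and 17.6 CPM in Ad-CTRL Pema livers and 26.2, 19.9, 23.9 and 25.6 CPM in Ad-CTRL CMC livers. The groups did not overlap between Pema and CMC in either virus, although the nearest Ad-CTRL CMC and Ad-CTRL Pema livers were close. Atg14 changed by -0.32 ± 0.10 (adjusted p = 0.0208) in Ad-FAT10 livers and -0.36 ± 0.10 (adjusted p = 0.00784) in Ad-CTRL livers. The Ad-FAT10 call for Atg14 was lost without Ad-FAT10 Pema replicate 3 or Ad-FAT10 CMC replicates 1 or 2 (adjusted p = 0.0503 to 0.0749) and without the filter on low counts (adjusted p = 0.0691).

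Becn1, the gene of Beclin 1, the core of that complex, had 51.8, 45.1, 46.9 and 44.4 CPM in Ad-FAT10 Pema livers and 42.4, 44.1, 43.7 and 42.6 CPM in Ad-FAT10 CMC livers, against 49.3, 48.8, 44.99 and 46.5 CPM in Ad-CTRL Pema livers and 40.4, 43.6, 40.4 and 36.8 CPM in Ad-CTRL CMC livers. The 4 Ad-CTRL Pema livers lay above all Ad-CTRL CMC livers, and the Ad-FAT10 Pema livers above all Ad-FAT10 CMC livers. Becn1 rose with Pema in Ad-CTRL livers by 0.24 ± 0.07 (adjusted p = 0.0211), and gave 0.12 ± 0.07 (adjusted p = 0.255) in Ad-FAT10 livers. The Becn1 call was lost without Ad-CTRL Pema replicate 2 or Ad-CTRL CMC replicate 4 (adjusted p = 0.0526 to 0.0676), when only the Ad-CTRL libraries were fitted (adjusted p = 0.055), without the filter on low counts (adjusted p = 0.162) and with total-count scaling (adjusted p = 0.177). Pik3c3 (Vps34), the lipid kinase itself, and its regulatory subunit Pik3r4 were called in no comparison. Pik3c3 averaged 19.8 ± 0.514 CPM in Ad-FAT10 Pema livers and 21.8 ± 1.25 CPM in Ad-FAT10 CMC livers, against 21.9 ± 2.81 CPM in Ad-CTRL Pema livers and 22.5 ± 2.28 CPM in Ad-CTRL CMC livers (SD, n = 4 each). Pik3r4 averaged 19.8 ± 2.26 CPM in Ad-FAT10 Pema livers and 22.4 ± 1.54 CPM in Ad-FAT10 CMC livers, against 21.002 ± 4.75 CPM in Ad-CTRL Pema livers and 18.3 ± 3.11 CPM in Ad-CTRL CMC livers (SD, n = 4 each).

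Of the genes that supply membrane and bind PI3P, Wipi1, whose protein is recruited to PI3P on the growing membrane, was called lower in all 4 comparisons. It was at 18.3, 19.2, 14.2 and 17.5 CPM in Ad-FAT10 Pema livers and 28.3, 31.2, 25.8 and 21.9 CPM in Ad-FAT10 CMC livers, against 22.2, 24.1, 22.5 and 24.7 CPM in Ad-CTRL Pema livers and 34.5, 32.9, 33.5 and 29.3 CPM in Ad-CTRL CMC livers. The Ad-FAT10 Pema livers were lower than all other livers, and the Pema livers of Ad-CTRL lay below all CMC livers of Ad-CTRL. With Pema, Wipi1 changed by -0.63 ± 0.11 (adjusted p = 0.000314) in Ad-FAT10 livers and -0.48 ± 0.11 (adjusted p = 0.00265) in Ad-CTRL livers. Between viruses it changed by -0.44 ± 0.11 (adjusted p = 0.00389) under Pema and -0.28 ± 0.11 (adjusted p = 0.0444) under CMC, and with total-count scaling these were -0.08 and 0.0037. The call under CMC, where the groups overlapped, was lost in 9 of 16 fits that left out a library each, without Ad-FAT10 Pema replicate 4, Ad-FAT10 CMC replicates 3 or 4, Ad-CTRL Pema replicates 2, 3 or 4 or Ad-CTRL CMC replicates 1, 2 or 3 (adjusted p = 0.0521 to 0.161). It was also lost without the filter on low counts (adjusted p = 0.0928) and with only the groups compared (adjusted p = 0.0612).

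Atg2a, which encodes a lipid transfer protein that feeds the growing membrane, rose with Pema in Ad-CTRL livers, where it averaged 113 ± 19.1 CPM in Ad-CTRL Pema livers and 79.0 ± 10.2 CPM in Ad-CTRL CMC livers (SD, n = 4 each), a change of 0.52 ± 0.11 (adjusted p = 0.00188). In Ad-FAT10 livers it averaged 95.6 ± 6.57 CPM in Ad-FAT10 Pema livers and 81.5 ± 4.70 CPM in Ad-FAT10 CMC livers (SD, n = 4 each), with a change of 0.23 ± 0.11 (adjusted p = 0.156). Atg9b, a scramblase gene related to Atg9a, had 0.888, 0.61, 0.415 and 0.553 CPM in Ad-FAT10 Pema livers and 0.688, 0.574, 0.47 and 0.618 CPM in Ad-FAT10 CMC livers, against 0.311, 0.267, 0.299 and 0.176 CPM in Ad-CTRL Pema livers and 0.528, 0.139, 0.139 and 0.257 CPM in Ad-CTRL CMC livers. The lowest of these levels are within the range of limits that a count of 0 allows, and the Ad-FAT10 livers overlapped the Ad-CTRL livers under CMC but not under Pema. Atg9b was higher in Ad-FAT10 livers by 1.21 ± 0.37 (adjusted p = 0.0147) under Pema and 1.19 ± 0.38 (adjusted p = 0.0182) under CMC. The Pema call was lost without Ad-CTRL Pema replicate 4 (adjusted p = 0.0566), and the CMC call without Ad-CTRL CMC replicates 2 or 3 (adjusted p = 0.0687 to 0.0692). Exons of Atg9b overlap those of Nos3 on the other strand, and no source used here gives the strand setting of the counting, so reads of the pair cannot be told apart. Atg2b, Atg9a and Wipi2 were called in no comparison, with log2 changes between -0.27 (Atg9a, Ad-FAT10 against Ad-CTRL under Pema) and 0.21 (Atg2b, the same under CMC).

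**Figure D2:**
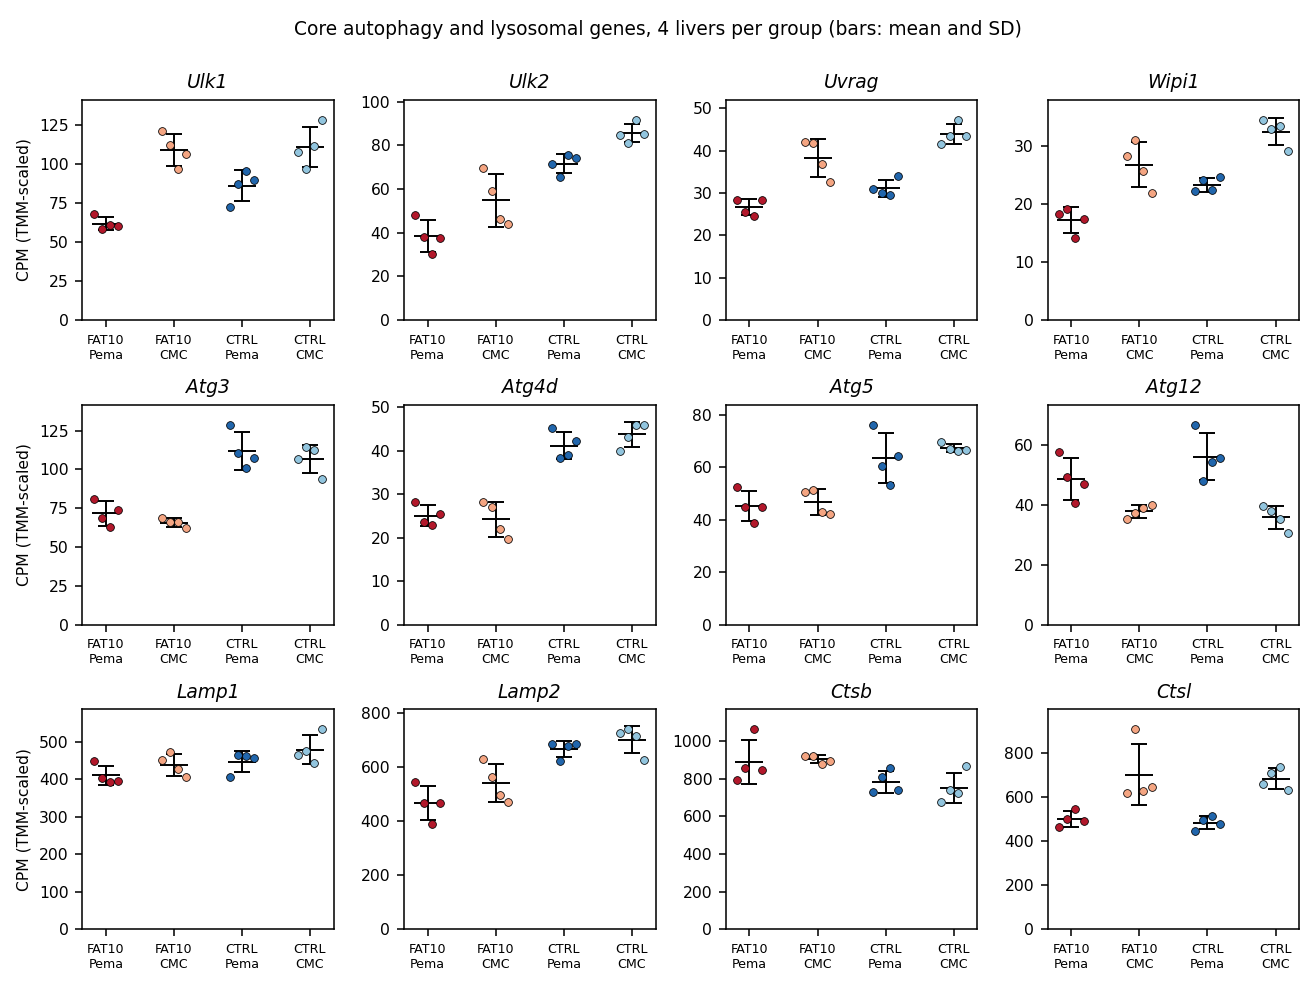
TMM-scaled CPM of 12 members in each liver, with Ad-FAT10 groups left of Ad-CTRL groups and Pema left of CMC, points for livers and bars for the mean and SD of 4 livers. Ulk1, Uvrag, Wipi1 and Ctsl sit lower in Pema than in CMC livers of the same virus, Atg12 sits higher, and Atg3, Atg4d and Atg5 sit lower in Ad-FAT10 than in Ad-CTRL livers, with changes of -0.85 (Atg4d) to -0.49 (Atg5) that total-count scaling kept negative.

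The conjugation genes split by comparison: pemafibrate changed 1 of 11, Atg12, and between viruses 6 of 11 were lower under Pema and 3 of 11 under CMC. The 1 gene called with the drug is 9.09% of these genes, against 25.4% of all genes in Ad-FAT10 livers and 30.6% in Ad-CTRL livers. The genes lower between viruses are 54.5% under Pema, against 20.5% of all genes, and 27.3% under CMC, against 20.2%. Atg12, the ubiquitin-like protein that is joined to Atg5, had 57.7, 49.2, 40.7 and 47.0 CPM in Ad-FAT10 Pema livers and 35.1, 37.1, 38.9 and 40.0001 CPM in Ad-FAT10 CMC livers, against 66.6, 47.8, 54.3 and 55.4 CPM in Ad-CTRL Pema livers and 39.6, 37.7, 35.4 and 30.7 CPM in Ad-CTRL CMC livers. Each Pema group lay above the CMC group of its virus with no overlap, and the highest liver was Ad-CTRL Pema replicate 1. Atg12 rose by 0.36 ± 0.11 (adjusted p = 0.0246) in Ad-FAT10 livers and 0.64 ± 0.11 (adjusted p = 0.000305) in Ad-CTRL livers. The Ad-FAT10 call for Atg12 was lost without Ad-FAT10 Pema replicates 1 or 2 or Ad-FAT10 CMC replicate 1 (adjusted p = 0.0541 to 0.0863), and with total-count scaling (adjusted p = 0.0515).

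Atg3, the E2-like enzyme that passes Atg8 proteins to the membrane lipid, had 81.3, 68.6, 62.8 and 74.1 CPM in Ad-FAT10 Pema livers and 68.8, 66.0, 66.3 and 62.0 CPM in Ad-FAT10 CMC livers, against 129, 110.4, 101 and 107 CPM in Ad-CTRL Pema livers and 107, 114, 112 and 94.1 CPM in Ad-CTRL CMC livers. The highest of the 8 Ad-FAT10 livers, at 81.3 CPM, was below the lowest Ad-CTRL liver, at 94.1 CPM. Atg3 was lower in Ad-FAT10 livers, with log2 changes of -0.64 ± 0.10 (adjusted p = 6.61e-05) under Pema and -0.70 ± 0.10 (adjusted p = 2.67e-05) under CMC. Atg4d, one of 4 proteases that trim the Atg8 proteins and free them from membranes, had 28.3, 23.7, 22.9 and 25.6 CPM in Ad-FAT10 Pema livers and 28.2, 27.1, 22.1 and 19.7 CPM in Ad-FAT10 CMC livers, against 45.2, 38.3, 39.2 and 42.2 CPM in Ad-CTRL Pema livers and 40.004, 43.2, 46.0 and 45.9 CPM in Ad-CTRL CMC livers. Here too all 8 Ad-FAT10 livers were below all 8 Ad-CTRL livers. Atg4d was lower, with log2 changes of -0.71 ± 0.11 (adjusted p = 6.81e-05) under Pema and -0.85 ± 0.11 (adjusted p = 1.21e-05) under CMC. Atg3 and Atg4d were still called lower with total-count scaling under each treatment. Exons of Atg4d overlap those of Kri1 on the other strand.

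Atg5, the acceptor of Atg12, averaged 45.2 ± 5.60 CPM in Ad-FAT10 Pema livers and 63.4 ± 9.66 CPM in Ad-CTRL Pema livers (SD, n = 4 each) and 46.7 ± 4.92 CPM in Ad-FAT10 CMC livers and 67.3 ± 1.44 CPM in Ad-CTRL CMC livers (SD, n = 4 each). Its change was -0.49 ± 0.11 (adjusted p = 0.00178) under Pema and -0.53 ± 0.11 (adjusted p = 0.00105) under CMC, and -0.14 and -0.24, not called, with total-count scaling. Under Pema alone 3 more conjugation genes were called lower in Ad-FAT10 livers. Atg4c, another of the proteases, averaged 9.44 ± 1.18 CPM in Ad-FAT10 Pema livers and 14.2 ± 0.865 CPM in Ad-CTRL Pema livers (SD, n = 4 each), a change of -0.59 ± 0.12 (adjusted p = 0.000793) that was -0.22 and not called (adjusted p = 0.131) with total-count scaling. Atg16l1, which binds the joined Atg12 and Atg5 to the membrane, averaged 37.8 ± 2.47 CPM in Ad-FAT10 Pema livers and 46.3 ± 1.69 CPM in Ad-CTRL Pema livers (SD, n = 4 each), a change of -0.29 ± 0.08 (adjusted p = 0.00858) that total-count scaling turned to 0.07 and that was not called without the filter on low counts (adjusted p = 0.0692). Atg10, the E2-like enzyme of Atg12, averaged 3.31 ± 1.01 CPM in Ad-FAT10 Pema livers and 4.45 ± 0.403 CPM in Ad-CTRL Pema livers (SD, n = 4 each), a change of -0.43 ± 0.17 (adjusted p = 0.0479). The Atg10 call was lost in 14 of 16 fits that left out a library each, without Ad-FAT10 Pema replicates 2, 3 or 4, Ad-FAT10 CMC replicates 2, 3 or 4, Ad-CTRL Pema replicates 1, 2, 3 or 4 or Ad-CTRL CMC replicates 1, 2, 3 or 4 (adjusted p = 0.0525 to 0.136). It was also lost with total-count scaling (-0.08, adjusted p = 0.728), without the filter on low counts (adjusted p = 0.12) and with only the groups compared (adjusted p = 0.11). For these 3 genes the CMC comparison gave -0.26 ± 0.12 (Atg4c), -0.17 ± 0.08 (Atg16l1) and -0.35 ± 0.17 (Atg10), none called, and no difference between the treatments passed its test. Atg4a, Atg4b, Atg7 (the E1-like enzyme of both systems) and Atg16l2 were called in no comparison, with log2 changes between -0.19 and 0.22, the lowest and the highest both in Atg16l2.

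The Atg8 family was called lower in Ad-FAT10 livers in full, 5 of 5 under each treatment, where 20.5% (Pema) and 20.2% (CMC) of all genes were lower. Their protein products coat the autophagosome and bind cargo receptors. Map1lc3a, which encodes LC3A, had 39.8, 36.3, 30.8 and 31.7 CPM in Ad-FAT10 Pema livers and 21.9, 21.8, 27.7 and 24.3 CPM in Ad-FAT10 CMC livers, against 62.0, 60.6, 61.6 and 59.1 CPM in Ad-CTRL Pema livers and 34.1, 38.5, 34.6 and 40.8 CPM in Ad-CTRL CMC livers. The 4 Ad-CTRL Pema livers stood apart above all others, and the 4 Ad-FAT10 CMC livers stood below all others. Map1lc3a rose with Pema by 0.53 ± 0.10 (adjusted p = 0.000595) in Ad-FAT10 livers and 0.72 ± 0.10 (adjusted p = 2.01e-05) in Ad-CTRL livers. It was lower in Ad-FAT10 than in Ad-CTRL livers, with log2 changes of -0.81 ± 0.10 (adjusted p = 8.97e-06) under Pema and -0.63 ± 0.10 (adjusted p = 9.21e-05) under CMC.

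Map1lc3b, which encodes LC3B, the usual marker protein of autophagosomes, had 139, 119, 109.7 and 122 CPM in Ad-FAT10 Pema livers and 108, 110.0, 108 and 98.7 CPM in Ad-FAT10 CMC livers, against 169, 163, 169 and 163 CPM in Ad-CTRL Pema livers and 149.9, 145, 143 and 136 CPM in Ad-CTRL CMC livers. Apart from Ad-FAT10 Pema replicate 1, the Ad-FAT10 livers were below all 8 Ad-CTRL livers, and within a treatment no groups of the 2 viruses overlapped. Map1lc3b was lower in Ad-FAT10 livers, with log2 changes of -0.44 ± 0.08 (adjusted p = 0.000322) under Pema and -0.43 ± 0.08 (adjusted p = 0.000357) under CMC. The Pema response was 0.21 ± 0.08 (adjusted p = 0.0656) in Ad-FAT10 livers and 0.21 ± 0.08 (adjusted p = 0.0509) in Ad-CTRL livers, neither called by edgeR, and DESeq2 called each higher (adjusted p = 0.0162 and 0.0201). Without Ad-FAT10 Pema replicate 3 edgeR also called each higher. The Ad-CTRL response was called without Ad-FAT10 Pema replicate 1 as well. Exons of Map1lc3b overlap those of Zcchc14 on the other strand.

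Gabarapl2, which encodes GATE-16, had 67.0, 67.6, 59.7 and 59.5 CPM in Ad-FAT10 Pema livers and 51.5, 49.4, 51.9 and 43.6 CPM in Ad-FAT10 CMC livers, against 89.2, 84.7, 88.2 and 89.3 CPM in Ad-CTRL Pema livers and 69.3, 73.2, 70.0 and 51.5 CPM in Ad-CTRL CMC livers. Within each virus the Pema livers lay above all CMC livers, and between viruses only the CMC groups touched, through Ad-CTRL CMC replicate 4. Gabarapl2 rose with Pema by 0.37 ± 0.10 (adjusted p = 0.00974) in Ad-FAT10 livers and 0.41 ± 0.10 (adjusted p = 0.00371) in Ad-CTRL livers. It was lower in Ad-FAT10 livers, with log2 changes of -0.47 ± 0.10 (adjusted p = 0.00108) under Pema and -0.43 ± 0.10 (adjusted p = 0.00234) under CMC. Gabarapl1 had 243, 219, 174 and 199.7 CPM in Ad-FAT10 Pema livers and 209.9, 239.7, 255 and 201 CPM in Ad-FAT10 CMC livers, against 343, 300.3, 332 and 336 CPM in Ad-CTRL Pema livers and 314, 376, 331 and 349.8 CPM in Ad-CTRL CMC livers. Its 8 Ad-FAT10 livers were below its 8 Ad-CTRL livers without overlap, and Pema and CMC livers overlapped within each virus. Gabarapl1 was lower, with log2 changes of -0.65 ± 0.11 (adjusted p = 0.000183) under Pema and -0.60 ± 0.11 (adjusted p = 0.00037) under CMC.

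Gabarap had 156, 124, 129 and 131 CPM in Ad-FAT10 Pema livers and 138, 158, 152 and 140.2 CPM in Ad-FAT10 CMC livers, against 188, 166, 152 and 163 CPM in Ad-CTRL Pema livers and 203, 199, 185 and 232 CPM in Ad-CTRL CMC livers. Its highest liver was Ad-CTRL CMC replicate 4, and Pema and CMC livers overlapped within each virus. Between viruses the CMC groups did not overlap. The Pema groups did, through Ad-FAT10 replicate 1, at 156 CPM, and Ad-CTRL replicate 3, at 152 CPM. Gabarap was the Atg8 gene that fell with Pema in Ad-CTRL livers, with a log2 change of -0.30 ± 0.10 (adjusted p = 0.0283) there and -0.12 ± 0.10 (adjusted p = 0.409) in Ad-FAT10 livers. The Ad-CTRL call was lost without Ad-CTRL Pema replicates 2, 3 or 4 or Ad-CTRL CMC replicate 4 (adjusted p = 0.0573 to 0.1) and without the filter on low counts (adjusted p = 0.0685). Between viruses the change was -0.31 ± 0.10 (adjusted p = 0.0173) under Pema, a call lost without Ad-FAT10 Pema replicate 2 or Ad-CTRL Pema replicate 1 (adjusted p = 0.0592 to 0.0604) and without the filter on low counts (adjusted p = 0.0813), and -0.48 ± 0.10 (adjusted p = 0.000852) under CMC. With total-count scaling Map1lc3a and Gabarapl1 were still called lower in Ad-FAT10 livers under each treatment, Map1lc3b, Gabarapl2 and, under CMC, Gabarap kept a negative change without a call, and Gabarap was at 0.05 under Pema.

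**Figure D3:**
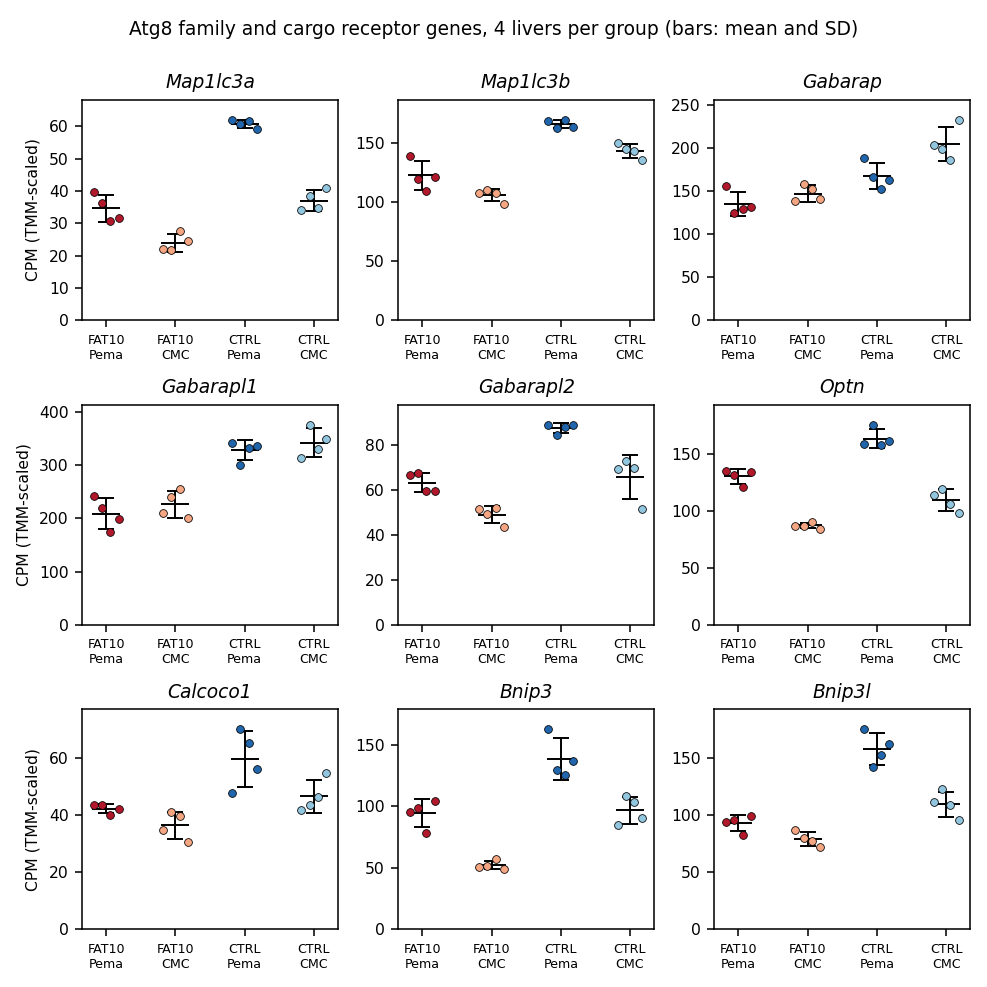
TMM-scaled CPM of the 5 Atg8 genes and 4 cargo receptors in each liver, with Ad-FAT10 groups left of Ad-CTRL groups and Pema left of CMC, points for livers and bars for the mean and SD of 4 livers. In Map1lc3a, Gabarapl2, Optn and Bnip3 the Pema livers sit above the CMC livers within each virus, and the Ad-FAT10 livers sit below the Ad-CTRL livers of the same treatment except where Gabarapl2 meets in CMC livers; total-count scaling moves Optn to -0.04 under CMC and 0.04 under Pema.

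Of the 6 cargo receptors, 4 rose with pemafibrate in Ad-CTRL livers, 2 of these rose in Ad-FAT10 livers, and the same 4 were lower in Ad-FAT10 livers under each treatment. The shares higher with Pema were 33.3% in Ad-FAT10 livers and 66.7% in Ad-CTRL livers, against 12.9% and 16.2% of all genes. The share lower was 66.7% under each treatment, against 20.5% (Pema) and 20.2% (CMC) of all genes. Bnip3, which encodes a mitophagy receptor of the outer mitochondrial membrane, had 95.2, 98.7, 78.2 and 105 CPM in Ad-FAT10 Pema livers and 50.5, 51.4, 56.8 and 49.4 CPM in Ad-FAT10 CMC livers, against 162, 129, 125 and 136 CPM in Ad-CTRL Pema livers and 84.9, 108, 103 and 90.6 CPM in Ad-CTRL CMC livers. The 4 Ad-FAT10 CMC livers, at 49.4 to 56.8 CPM, lay below all other livers, and the 4 Ad-CTRL Pema livers above all others. Bnip3 rose with Pema by 0.86 ± 0.11 (adjusted p = 1.5e-05) in Ad-FAT10 livers and 0.52 ± 0.11 (adjusted p = 0.00124) in Ad-CTRL livers. It was lower in Ad-FAT10 livers, with log2 changes of -0.55 ± 0.11 (adjusted p = 0.000572) under Pema and -0.89 ± 0.11 (adjusted p = 8.18e-06) under CMC. With total-count scaling the Pema value was -0.20 and not called.

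Bnip3l, which encodes the related mitophagy receptor NIX, had 94.3, 95.8, 82.8 and 99.0 CPM in Ad-FAT10 Pema livers and 86.9, 79.8, 77.3 and 71.6 CPM in Ad-FAT10 CMC livers, against 175, 142, 152 and 162 CPM in Ad-CTRL Pema livers and 111, 123, 109 and 95.9 CPM in Ad-CTRL CMC livers. The Ad-CTRL Pema livers stood above all others, and every Ad-FAT10 liver was below every Ad-CTRL liver of the same treatment. Bnip3l rose with Pema in Ad-CTRL livers by 0.53 ± 0.09 (adjusted p = 0.000341) and gave 0.24 ± 0.09 (adjusted p = 0.0778) in Ad-FAT10 livers. It was lower in Ad-FAT10 livers, with log2 changes of -0.76 ± 0.10 (adjusted p = 1.24e-05) under Pema and -0.47 ± 0.10 (adjusted p = 0.000755) under CMC. With total-count scaling the CMC value was -0.19 and not called.

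Optn, which encodes optineurin, a receptor for ubiquitin-tagged mitochondria and bacteria, had 135, 132, 121 and 134 CPM in Ad-FAT10 Pema livers and 87.2, 87.0, 90.5 and 84.5 CPM in Ad-FAT10 CMC livers, against 159, 176, 158 and 162 CPM in Ad-CTRL Pema livers and 114, 119.5, 106 and 97.8 CPM in Ad-CTRL CMC livers. No pair of groups overlapped, with Ad-CTRL Pema highest and Ad-FAT10 CMC lowest. Optn rose with Pema by 0.58 ± 0.08 (adjusted p = 2.96e-05) in Ad-FAT10 livers and 0.58 ± 0.08 (adjusted p = 1.96e-05) in Ad-CTRL livers. It was lower in Ad-FAT10 livers, with log2 changes of -0.32 ± 0.08 (adjusted p = 0.00306) under Pema and -0.33 ± 0.08 (adjusted p = 0.00305) under CMC, values that total-count scaling moved to 0.04 and -0.04.

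Calcoco1, a receptor gene tied to turnover of the endoplasmic reticulum, averaged 42.3 ± 1.65 CPM in Ad-FAT10 Pema livers and 59.8 ± 9.85 CPM in Ad-CTRL Pema livers (SD, n = 4 each) and 36.6 ± 4.74 CPM in Ad-FAT10 CMC livers and 46.7 ± 5.78 CPM in Ad-CTRL CMC livers (SD, n = 4 each). It was lower in Ad-FAT10 livers, with log2 changes of -0.50 ± 0.12 (adjusted p = 0.0027) under Pema and -0.35 ± 0.12 (adjusted p = 0.0235) under CMC, the CMC call being lost without Ad-FAT10 CMC replicates 1 or 4 or Ad-CTRL CMC replicate 4 (adjusted p = 0.0543 to 0.088), and with total-count scaling neither was called. It rose with Pema in Ad-CTRL livers by 0.36 ± 0.12 (adjusted p = 0.0286), where the groups overlapped and the call was lost without Ad-CTRL Pema replicates 2 or 3 or Ad-CTRL CMC replicates 1, 2 or 3 (adjusted p = 0.0614 to 0.109). That call was also lost with total-count scaling (0.27, adjusted p = 0.0551). Nbr1 and Tax1bp1, receptors for ubiquitin-tagged proteins, were called in no comparison. Nbr1 averaged 212 ± 31.9 CPM in Ad-FAT10 Pema livers and 232 ± 13.2 CPM in Ad-FAT10 CMC livers, against 202 ± 26.5 CPM in Ad-CTRL Pema livers and 221 ± 16.2 CPM in Ad-CTRL CMC livers (SD, n = 4 each). Tax1bp1 averaged 204 ± 22.3 CPM in Ad-FAT10 Pema livers and 187 ± 2.72 CPM in Ad-FAT10 CMC livers, against 206 ± 10.7 CPM in Ad-CTRL Pema livers and 187 ± 18.7 CPM in Ad-CTRL CMC livers (SD, n = 4 each).

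The 2 transcription factor genes gave 1 call, Tfe3 between viruses under CMC, where 42.6% of all genes were called. Tfe3 had 32.6, 45.6, 43.1 and 36.8 CPM in Ad-FAT10 Pema livers and 39.6, 40.6, 50.9 and 43.6 CPM in Ad-FAT10 CMC livers, against 29.5, 34.4, 36.5 and 33.2 CPM in Ad-CTRL Pema livers and 27.4, 26.8, 31.2 and 31.6 CPM in Ad-CTRL CMC livers. Under CMC the 4 Ad-FAT10 livers lay above all 4 Ad-CTRL livers, and under Pema the groups overlapped. Tfe3 was higher in Ad-FAT10 livers by 0.58 ± 0.11 (adjusted p = 0.00055) under CMC and gave 0.24 ± 0.11 (adjusted p = 0.0881) under Pema. Tfeb, the better known regulator of lysosomal genes, had 11.9, 10.6, 9.47 and 10.3 CPM in Ad-FAT10 Pema livers and 10.2, 10.4, 10.3 and 11.5 CPM in Ad-FAT10 CMC livers, against 7.52, 9.62, 9.28 and 8.42 CPM in Ad-CTRL Pema livers and 8.68, 9.10, 10.8 and 13.1 CPM in Ad-CTRL CMC livers. Its groups overlapped in all 4 comparisons, under Pema only through Ad-FAT10 replicate 3, at 9.47 CPM, and Ad-CTRL replicate 2, at 9.62 CPM. Tfeb changed by 0.28 ± 0.13 (adjusted p = 0.0875) and 0.03 ± 0.13 (adjusted p = 0.876) between viruses under Pema and CMC, and by -0.01 ± 0.12 (adjusted p = 0.968) and -0.26 ± 0.13 (adjusted p = 0.141) with Pema in Ad-FAT10 and Ad-CTRL livers. With total-count scaling Tfeb was called higher in Ad-FAT10 livers under each treatment (0.64 and 0.32 under Pema and CMC) and lower with Pema in Ad-CTRL livers (-0.35).

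The lysosomal genes were abundant, and 1 of 5 (20%) was called in each comparison. Of all genes, 25.4% and 30.6% were called with Pema in Ad-FAT10 and Ad-CTRL livers. Between viruses 41.7% (Pema) and 42.6% (CMC) of all genes were called. Lamp1, a major glycoprotein of the lysosomal membrane, had 448, 404, 394 and 396 CPM in Ad-FAT10 Pema livers and 452, 473, 427 and 405 CPM in Ad-FAT10 CMC livers, against 407, 466, 461 and 456 CPM in Ad-CTRL Pema livers and 466, 474, 444 and 533 CPM in Ad-CTRL CMC livers. The groups overlapped in all 4 comparisons. Lamp1 changed by -0.10 ± 0.09 and -0.10 ± 0.09 with Pema in Ad-FAT10 and Ad-CTRL livers and by -0.13 ± 0.09 and -0.13 ± 0.09 between viruses under Pema and CMC, none called, and total-count scaling gave 0.24, a call, under Pema. Lamp2, whose protein is needed for fusion of autophagosomes with lysosomes, had 544, 467, 391 and 468 CPM in Ad-FAT10 Pema livers and 630.2, 565, 499 and 470.4 CPM in Ad-FAT10 CMC livers, against 686, 625, 677 and 687 CPM in Ad-CTRL Pema livers and 726, 740.1, 716 and 627 CPM in Ad-CTRL CMC livers. The Ad-FAT10 Pema livers lay below all Ad-CTRL Pema livers, and the CMC groups met at 630.2 and 627 CPM. Lamp2 was lower in Ad-FAT10 livers, with log2 changes of -0.52 ± 0.11 (adjusted p = 0.00164) under Pema and -0.38 ± 0.11 (adjusted p = 0.0135) under CMC, the CMC call being lost without Ad-FAT10 CMC replicate 4 (adjusted p = 0.051), and neither was called with total-count scaling.

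Ctsl, which encodes the cysteine protease cathepsin L, had 465, 503, 548 and 491 CPM in Ad-FAT10 Pema livers and 622, 909, 630.3 and 647 CPM in Ad-FAT10 CMC livers, against 446, 499, 513 and 478 CPM in Ad-CTRL Pema livers and 661, 709, 739.7 and 632 CPM in Ad-CTRL CMC livers. Every Pema liver lay below every CMC liver, and Ad-FAT10 CMC replicate 2 was far above the rest of its group. Ctsl fell with Pema, with log2 changes of -0.48 ± 0.12 (adjusted p = 0.00537) in Ad-FAT10 livers and -0.50 ± 0.12 (adjusted p = 0.00337) in Ad-CTRL livers, and gave 0.05 ± 0.12 and 0.03 ± 0.12 between viruses under Pema and CMC. Ctsb, which encodes cathepsin B, had 792, 855, 1062 and 849 CPM in Ad-FAT10 Pema livers and 918, 922, 879 and 893 CPM in Ad-FAT10 CMC livers, against 729, 807, 856 and 742 CPM in Ad-CTRL Pema livers and 679, 740.4, 725 and 865 CPM in Ad-CTRL CMC livers. The Ad-FAT10 CMC livers lay above all Ad-CTRL CMC livers, by a difference of 0.26 ± 0.11 (adjusted p = 0.0598), and other groups overlapped. That difference was called without Ad-CTRL CMC replicate 4 or Ad-FAT10 Pema replicate 3. Ctsd, which encodes the aspartic protease cathepsin D, had 183, 202, 211 and 179.6 CPM in Ad-FAT10 Pema livers and 169.6, 168, 173 and 182 CPM in Ad-FAT10 CMC livers, against 208, 222, 247 and 205 CPM in Ad-CTRL Pema livers and 161, 151, 182 and 239 CPM in Ad-CTRL CMC livers. The Ad-CTRL CMC livers spread most widely, and Ctsd was called in no comparison, with the largest difference 0.27 ± 0.12 (adjusted p = 0.101) for Pema in Ad-CTRL livers. Without Ad-CTRL CMC replicate 4, Ctsd was called higher with Pema in Ad-CTRL livers (adjusted p = 0.00393). Total-count scaling called Ctsb higher in Ad-FAT10 livers under each treatment (0.55 in each), and Ctsl likewise (0.42 under Pema and 0.32 under CMC).

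TFEB and TFE3 are known to bind the CLEAR element, whose core is the palindrome CACGTG, and promoter windows of the members were searched for it. RefSeq promoter windows of build GRCm38.p6, with 250 bases before and 50 bases from the start site, were found for 37 of 45 members (44 windows). CACGTG was present in the windows of 8 members, Atg14, Atg3, Atg5, Atg7, Bnip3, Ctsd, Ctsl and Lamp1, which made up 18.2% of the member windows, against 7.15% of all 32851 windows. The longer form GTCACGTG or its reverse complement CACGTGAC, which overlaps the core, was present in Atg14, Atg3, Atg7, Ctsd and Lamp1, or 11.4% of the member windows against 2.25% of all windows. A strict form of DR1, the direct repeat that makes up the PPAR response element, searched on each strand, was in no member window, where 0.0396% of all windows held it. At that share a match in 44 windows is unlikely, so its absence says nothing about PPAR elements of these genes. The windows of 6 of the 8 are shown because they pair a CACGTG match with different responses: Lamp1 and Ctsd were never called, Ctsl and Atg14 fell with Pema, Atg3 was lower in Ad-FAT10 livers and Bnip3 moved in all 4 comparisons. The windows are chr8:13158911-13159210 on the plus strand for Lamp1, chr7:142387778-142388077 on the minus strand for Ctsd, chr13:64370471-64370770 on the minus strand for Ctsl, chr14:47568385-47568684 on the minus strand for Atg14, chr16:45158579-45158878 on the plus strand for Atg3 and chr7:138909457-138909756 on the minus strand for Bnip3. Each is written 5′ to 3′ along its gene's strand, with each match in capitals, the longer form where it is present and otherwise the CACGTG core.
Lamp1: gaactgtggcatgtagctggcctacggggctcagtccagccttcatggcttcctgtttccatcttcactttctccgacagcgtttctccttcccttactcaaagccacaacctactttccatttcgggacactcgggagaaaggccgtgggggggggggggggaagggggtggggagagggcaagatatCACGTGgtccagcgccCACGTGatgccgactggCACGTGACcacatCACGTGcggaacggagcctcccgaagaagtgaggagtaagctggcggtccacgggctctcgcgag
Ctsd: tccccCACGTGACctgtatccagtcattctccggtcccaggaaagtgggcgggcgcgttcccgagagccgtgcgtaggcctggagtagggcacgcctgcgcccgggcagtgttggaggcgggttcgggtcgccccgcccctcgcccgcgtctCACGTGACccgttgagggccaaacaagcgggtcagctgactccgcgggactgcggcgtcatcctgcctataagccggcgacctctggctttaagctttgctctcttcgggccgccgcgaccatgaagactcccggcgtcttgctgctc
Ctsl: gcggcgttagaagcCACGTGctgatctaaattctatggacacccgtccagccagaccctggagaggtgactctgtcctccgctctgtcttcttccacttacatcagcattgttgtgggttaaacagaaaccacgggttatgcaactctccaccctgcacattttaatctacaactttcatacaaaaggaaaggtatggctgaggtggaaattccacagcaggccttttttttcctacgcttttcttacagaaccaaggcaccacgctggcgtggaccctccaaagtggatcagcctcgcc
Atg14: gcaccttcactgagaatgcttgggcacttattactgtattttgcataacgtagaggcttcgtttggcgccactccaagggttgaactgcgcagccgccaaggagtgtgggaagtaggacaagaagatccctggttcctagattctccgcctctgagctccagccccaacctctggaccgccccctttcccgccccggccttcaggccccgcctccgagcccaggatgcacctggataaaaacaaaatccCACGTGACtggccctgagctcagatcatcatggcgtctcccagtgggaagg
Atg3: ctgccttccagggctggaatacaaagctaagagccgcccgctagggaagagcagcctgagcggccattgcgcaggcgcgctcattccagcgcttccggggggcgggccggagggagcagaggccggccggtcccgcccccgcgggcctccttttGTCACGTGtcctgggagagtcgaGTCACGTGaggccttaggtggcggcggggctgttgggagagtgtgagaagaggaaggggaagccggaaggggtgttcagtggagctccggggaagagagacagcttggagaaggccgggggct
Bnip3: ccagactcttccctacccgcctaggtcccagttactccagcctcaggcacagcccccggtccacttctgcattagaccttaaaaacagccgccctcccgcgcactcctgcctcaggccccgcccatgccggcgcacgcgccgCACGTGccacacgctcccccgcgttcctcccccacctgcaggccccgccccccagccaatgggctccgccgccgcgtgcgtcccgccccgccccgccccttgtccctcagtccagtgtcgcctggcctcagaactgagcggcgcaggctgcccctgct

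The CACGTG cores in Lamp1 began 61, 45, 28 and 15 bases before the start site. Those in Ctsd began 245 and 98 bases before it, and those in Atg3 94 and 71 bases before it. The core in Ctsl began 236 bases, in Bnip3 108 bases and in Atg14 1 base before the start site. With Pema, members with a match moved in each direction. In Ad-CTRL livers Ctsl and Atg14 fell, Bnip3 rose, and Atg3, Atg5, Atg7, Ctsd and Lamp1 were not called. In Ad-FAT10 against Ad-CTRL livers under CMC Atg3, Atg5 and Bnip3 were lower, and no member with a match was higher. The other 5 members with a match, Atg14, Atg7, Ctsd, Ctsl and Lamp1, were not called. A match describes letters in the window and was not tested as a site of binding.

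Over the 4 comparisons, 15 members were never called, 9 were called in 1 comparison, 11 in 2, 5 in 3 and 5 in all 4. These are 33.3%, 20%, 24.4%, 11.1% and 11.1% of the members, beside 31.2%, 19.1%, 33.9%, 9.57% and 6.18% of all genes tested. The 5 called in all 4 were Bnip3, Gabarapl2, Map1lc3a and Optn, each higher with Pema and lower in Ad-FAT10 livers, and Wipi1, lower in each. The Ad-CTRL CMC livers enter the drug comparison in Ad-CTRL and the virus comparison under CMC, and each other group is shared likewise, so these counts are not independent. No member was called in opposite directions by the same factor.

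**Figure D4:**
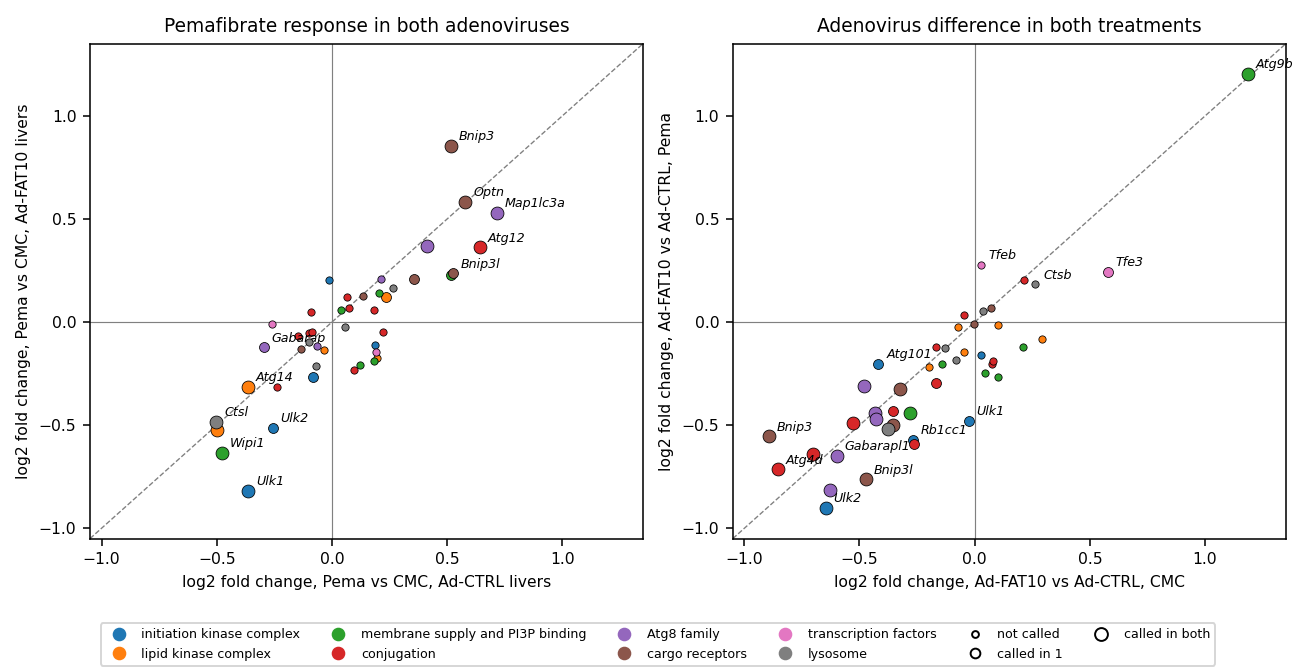
Left, the log2 change with Pema in Ad-FAT10 livers (vertical) against that in Ad-CTRL livers (horizontal); right, the log2 change of Ad-FAT10 against Ad-CTRL livers under Pema (vertical) against that under CMC (horizontal). Each point is a member coloured by role, large points are called in both, and the dashed line marks equal changes; Ulk1 lies below the line at left, at -0.36 and -0.82, and most points at right lie below and left of 0, where total-count scaling moves all genes by 0.29 and 0.36.

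Whether the drug response depended on the virus was tested as the response in Ad-FAT10 livers minus that in Ad-CTRL livers. None of the 45 members passed by edgeR, where 0.156% of all genes (23) did, 0.0271% higher and 0.129% lower. None passed by DESeq2 and none in a fit blocked on replicate number. With an unadjusted p under 0.05, 5 of 45 members and 1591 of 14770 genes tested were found, which are near-equal shares. The smallest adjusted p was that of Ulk1, with a difference of -0.45 ± 0.15 (adjusted p = 0.261). Bnip3 differed by 0.34 ± 0.15 (adjusted p = 0.435) and Bnip3l by -0.29 ± 0.13 (adjusted p = 0.452). The standard errors of the 45 differences ran from 0.10 to 0.57, and a p that misses the threshold does not show equal responses.

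Beyond the members, 4 wider lists were counted in the same fit. Of 39 further autophagy genes tested (40 listed), 6 were higher (15.4%) and 5 lower (12.8%) with Pema in Ad-FAT10 livers, where 12.9% of all genes were higher and 12.5% lower. In Ad-CTRL livers 9 were higher (23.1%) and 5 lower (12.8%), where 16.2% of all genes were higher and 14.4% lower. Bcl2l13, another mitophagy receptor of the outer mitochondrial membrane, rose by 0.63 ± 0.09 in Ad-FAT10 livers and 1.11 ± 0.09 in Ad-CTRL livers. Vps41, a subunit of the HOPS tether that joins autophagosomes to lysosomes, rose by 0.47 ± 0.08 and 0.77 ± 0.08. Between viruses 15 were lower (38.5%) and 5 higher (12.8%) under Pema, where 20.5% of all genes were lower and 21.2% higher. Under CMC 9 were lower (23.1%) and 6 higher (15.4%), where 20.2% of all genes were lower and 22.5% higher. Dram1, which encodes a lysosomal membrane protein, was higher in Ad-FAT10 livers by 1.26 ± 0.17 under Pema and 1.86 ± 0.18 under CMC, and Vamp8, the SNARE of the lysosomal side, was lower, with log2 changes of -0.68 ± 0.11 and -0.52 ± 0.11. The number lower with Pema in Ad-FAT10 livers was 3 without Ad-FAT10 Pema replicate 3 or Ad-FAT10 CMC replicate 1 or 2. In Ad-CTRL livers it was 3 without Ad-CTRL Pema replicate 2, 3 or 4 or Ad-CTRL CMC replicate 1 or 3. The median change of this list was -0.04 and 0.05 with Pema in Ad-FAT10 and Ad-CTRL livers, and -0.11 and -0.06 between viruses under Pema and CMC.

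Of 43 further lysosomal hydrolase and cofactor genes, 13 were higher and 3 lower in Ad-FAT10 livers under Pema, and 13 were higher and 3 lower under CMC. That is 30.2% higher and 6.98% lower under each treatment, where 21.2% (Pema) and 22.5% (CMC) of all genes were higher and 20.5% and 20.2% lower. Ctss, a cathepsin gene strongly expressed in antigen-presenting cells, was higher by 1.36 ± 0.16 under Pema and 1.12 ± 0.16 under CMC. Macrophage and monocyte markers were higher in the same livers, and the part of cell composition in the change of Ctss was not tested. Gla, which encodes alpha-galactosidase A, was higher by 0.78 ± 0.11 and 1.05 ± 0.11. With Pema, 6 were higher (13.95%) and 8 lower (18.6%) in Ad-FAT10 livers, and 7 were higher (16.3%) and 9 lower (20.9%) in Ad-CTRL livers. Over all genes the shares were 12.9% and 12.5%, and 16.2% and 14.4%. Neu1, the lysosomal sialidase gene, fell, with log2 changes of -0.64 ± 0.09 and -0.79 ± 0.09, while Manba, the beta-mannosidase gene, rose by 0.70 ± 0.12 and 0.87 ± 0.12. The number lower with Pema in Ad-FAT10 livers was 3 without Ad-FAT10 CMC replicate 2, 4 without Ad-FAT10 Pema replicate 4 and 5 without Ad-FAT10 Pema replicate 2 or Ad-FAT10 CMC replicate 1. Between viruses the number lower was 6 under Pema without Ad-FAT10 Pema replicate 1, and under CMC 6 without Ad-FAT10 CMC replicate 2 and 5 without Ad-CTRL CMC replicate 1. The hydrolase list had a median change of 0.03 and 0.08 between viruses under Pema and CMC.

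Of 43 genes of the lysosomal membrane and proton pump, 6 were higher (13.95%) and 12 lower (27.9%) in Ad-FAT10 livers under Pema, where 21.2% of all genes were higher and 20.5% lower. Under CMC 11 were higher and 11 lower (25.6% each), where 22.5% of all genes were higher and 20.2% lower. Tpcn2, a lysosomal ion channel gene, was higher by 0.93 ± 0.12 and 0.86 ± 0.12, and Gnptg, a subunit of the enzyme that tags hydrolases for the lysosome, was lower, with log2 changes of -0.67 ± 0.09 and -0.69 ± 0.09. With Pema, 2 were higher (4.65%) and 6 lower (13.95%) in Ad-FAT10 livers, and 5 were higher (11.6%) and 3 lower (6.98%) in Ad-CTRL livers. The shares over all genes are those given above. Ostm1, the partner of the lysosomal chloride transporter, fell, with log2 changes of -0.45 ± 0.11 and -0.52 ± 0.11. With Pema, the number higher was 4 in Ad-FAT10 livers without Ad-FAT10 CMC replicate 1 and 3 in Ad-CTRL livers without Ad-CTRL Pema replicate 3. The number lower in Ad-CTRL livers was 1 without Ad-CTRL Pema replicate 1, 3 or 4 or Ad-CTRL CMC replicate 2 or 3. This list's median change was -0.01 and 0.06 between viruses under Pema and CMC.

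Upstream of ULK1, 31 genes of the mTORC1 and AMPK pathways, which restrain and promote autophagy, were counted. With Pema, 2 were higher (6.45%) and 9 lower (29.0%) in Ad-FAT10 livers, where 12.9% of all genes were higher and 12.5% lower. In Ad-CTRL livers 4 were higher (12.9%) and 6 lower (19.4%), where 16.2% of all genes were higher and 14.4% lower. Flcn and Fnip2, which encode folliculin and its partner, regulators of mTORC1 and of TFEB, fell with Pema. In Ad-FAT10 and Ad-CTRL livers the log2 changes of Flcn were -0.68 ± 0.09 and -0.70 ± 0.09, and those of Fnip2 -0.72 ± 0.10 and -1.02 ± 0.10. Foxo3, a transcription factor gene of fasting and autophagy, fell, with log2 changes of -0.87 ± 0.10 and -0.71 ± 0.10. Mtor rose by 1.02 ± 0.14 in Ad-CTRL livers. Between viruses 3 were higher (9.68%) and 5 lower (16.1%) under Pema, and 4 were higher (12.9%) and 6 lower (19.4%) under CMC, each share below that over all genes. Sesn2, a stress-induced inhibitor of mTORC1, was higher in Ad-FAT10 livers by 0.71 ± 0.11 and 0.79 ± 0.11. The number lower between viruses under Pema was 2 or 3 in 9 of 16 fits that left out a library each: without Ad-FAT10 Pema replicate 2, 3 or 4, Ad-FAT10 CMC replicate 2 or 3, Ad-CTRL Pema replicate 2, 3 or 4 or Ad-CTRL CMC replicate 3. Under CMC it was 3 without Ad-FAT10 CMC replicate 3 or 4 or Ad-CTRL CMC replicate 2 or 3. The number higher with Pema in Ad-FAT10 livers was 1 without Ad-FAT10 Pema replicate 1 or Ad-FAT10 CMC replicate 1 or 2. The median change of this list was -0.04 and -0.04 with Pema in Ad-FAT10 and Ad-CTRL livers.

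**Figure D5:**
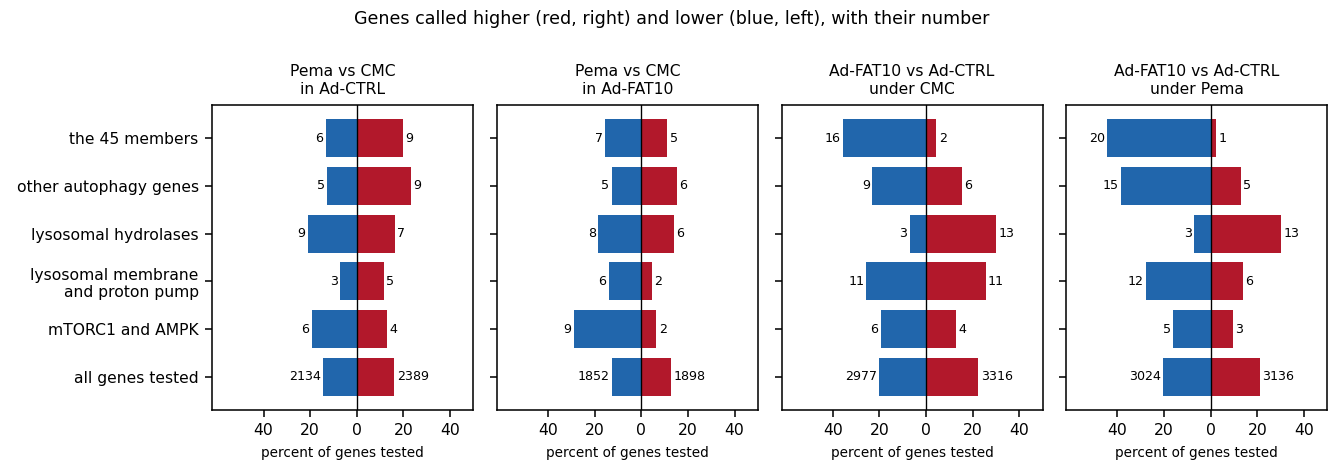
Share of genes called higher (red, right) and lower (blue, left) with their number, for the 45 members, 4 wider lists and all genes tested, in the 4 comparisons. In the virus comparisons 16 and 20 members are lower against 2 and 1 higher, while 13 hydrolase genes are higher and 3 lower. With total-count scaling 6 members are lower and 18 (CMC) and 15 (Pema) higher. Of all 14770 genes, 1061 (CMC) and 826 (Pema) are then lower and 6365 and 7204 higher.

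Per length of transcript, members differed widely in level. In Ad-CTRL CMC livers Lamp1 stood at 179 ± 14.2 CPM per kb, followed by Gabarapl1 at 170.2 ± 13.3, Ctsb at 124 ± 13.2, Gabarap at 111 ± 10.7 and Ctsl at 106 ± 7.46 CPM per kb (mean ± SD, n = 4). Lamp1 and Gabarapl1 were within their spread of each other, as were Ctsb, Gabarap and Ctsl. At the low end Tfeb stood at 1.84 ± 0.355 and Atg9b at 0.0673 ± 0.0465 CPM per kb. Lengths are those of all exons that GENCODE M21 lists for a gene, merged; it annotates GRCm38, while the submitters' processing notes name GRCm39, so these levels are approximate.

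Counting could mix reads of some members with those of other genes. Exons of 17 of 45 members overlap a gene on the opposite strand and those of 3 overlap a gene on the same strand in GENCODE M21, and Atg4a and Bnip3l have a named pseudogene. Members whose calls carry this limit include Becn1 (with Cntd1), Atg4d (Kri1) and Map1lc3b (Zcchc14) on the opposite strand, and Ctsl, whose exons overlap a processed pseudogene on its own strand. The changes of these genes are given for the counts as deposited.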

How the data were processed

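The values used are raw counts, deposited as 1 file per mouse with a row for each Ensembl gene and not normalized. Messenger RNA was selected on oligo-dT beads, second strands carried dUTP, and the instrument was a DNBSEQ, per the labels' protocols. Tools listed in the submitters' processing notes are STAR (version 2.7.6) and DESeq2 (versions 1.36.0 and 2.11.40.6), with GRCm39 as build. No source used here names the counter, its strand setting or its annotation. Groups and replicate numbers came from the sample titles. Symbols came from GENCODE M21 (94.0% of identifiers matched; the others held 0.0988% of counts).

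Counts were tested in R 4.3.3 with edgeR 4.0.16: filterByExpr (14770 genes kept), TMM scaling, 1 quasi-likelihood fit of all 16 libraries with a mean per group (12 residual degrees of freedom), two-sided F tests and Benjamini-Hochberg adjustment over all genes tested in each of 5 comparisons, called at an adjusted p under 0.05. Chi-square per gene in the 24 replicate pairs ran from 14.5 to 119, so each library was kept as a replicate. The labels give no batch, so no comparison within batches was made, and equal replicate numbers were not treated as pairs. Alternatives were RLE and total-count scaling, DESeq2 1.42.0, no filter on low counts, 1 CPM in 4 libraries, only the groups compared, a replicate block, and each library left out. The steps were tested on simulated data.

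The members and all gene and marker lists were chosen with earlier results of these data known. Values in every liver are given for members called in groups that do not overlap, up to 8 per direction by smallest p, and for Map1lc3b, Tfeb, Lamp1, Lamp2, Ctsb, Ctsd, Ctsl and Ulk1 whatever their test; wider lists name genes among the 4 with the smallest p in a comparison. Of 12 hepatocyte markers 11 were matched. Protein sequences were not used here.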

Additional observations from a re-analysis of the deposited data

Results flagged for a closer look

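Of 180 sets of 4 livers (45 members in 4 groups), 12 held a liver that stood apart from the other 3 by Dixon's 95% criterion, where chance gives about 1 in 20, or 9 sets. Among the machinery genes, Pik3r4 was at 16.4 CPM in Ad-FAT10 Pema replicate 1, against 20.7 to 21.1 CPM in the rest of its group. Atg4a was at 7.98 CPM in Ad-FAT10 Pema replicate 3, against 10.3 to 10.7 CPM, and Atg7 at 47.9 CPM in the same liver, against 59.7 to 61.6 CPM. Atg10 was at 4.82 CPM in Ad-FAT10 Pema replicate 1, against 2.73 to 2.85 CPM, and that group enters its call. Atg101 was at 33.0 CPM in Ad-CTRL CMC replicate 4, against 35.1 to 35.3 CPM, and Atg4b at 34.0 CPM in Ad-CTRL CMC replicate 1, against 36.3 to 36.7 CPM. Atg16l1 was at 42.7 CPM in Ad-FAT10 CMC replicate 2, against 33.8 to 34.6 CPM, and at 48.8 CPM in Ad-CTRL Pema replicate 2, against 45.2 to 45.8 CPM.

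Among the lysosomal genes and their regulator, Ctsl was at 909 CPM in Ad-FAT10 CMC replicate 2, against 622 to 647 CPM in the rest of its group, and without that liver its fall with Pema in Ad-FAT10 livers was still called. Lamp1 was at 407 CPM in Ad-CTRL Pema replicate 1, against 456 to 466 CPM, and Lamp2 at 625 CPM in Ad-CTRL Pema replicate 2, against 677 to 687 CPM. Tfeb was at 11.5 CPM in Ad-FAT10 CMC replicate 4, against 10.2 to 10.4 CPM.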

How the results depend on the processing

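The counts of members higher and lower with pemafibrate, and of members lower in Ad-FAT10 livers, stayed within 1.5 times their reported values under every alternative run except total-count scaling. With total-count scaling 18 members were higher and 6 lower in Ad-FAT10 livers under CMC (reported 2 and 16), and 15 higher and 6 lower under Pema (reported 1 and 20), with medians of 0.149 and 0.140 (reported -0.14 and -0.22). Of all 14770 genes, that scaling gave 6365 higher and 1061 lower under CMC, and 7204 higher and 826 lower under Pema. Between viruses 14 members changed sign with that scaling under CMC and 20 under Pema. Those called with TMM were Wipi1 under CMC (0.0037), and Atg16l1 (0.069), Gabarap (0.048) and Optn (0.039) under Pema, and among those not called with TMM Ulk1 became 0.26 under CMC and Lamp1 0.24 under Pema. These values move with the all-gene median, as the construction of that scaling sets. In the wider lists it gave, higher and lower, 21 and 1 (CMC) and 21 and 2 (Pema) autophagy genes, 29 and 0 and then 30 and 0 hydrolase genes, 26 and 2 in each for the lysosomal membrane, and 16 and 0 and then 18 and 2 mTORC1 and AMPK genes. With Pema in Ad-CTRL livers it gave 10 further autophagy genes lower, 2 membrane genes higher and 2 mTORC1 and AMPK genes higher, and 1 of the last list higher in Ad-FAT10 livers. Of all 14770 genes it gave 1782 higher and 2730 lower with Pema in Ad-CTRL livers, and 1683 and 1903 in Ad-FAT10 livers.

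The number of members higher in Ad-FAT10 livers was 1 under CMC and 0 under Pema with a minimum of 1 CPM in 4 libraries, which removes Atg9b. Leaving out each library in turn gave 1 to 4 higher under CMC and 0 to 2 under Pema. Other counts that moved by over 1.5 times were small ones of the wider lists, and the cause was not tested. Without a filter on low counts, 3 membrane genes were higher and 1 lower and 2 mTORC1 and AMPK genes higher with Pema in Ad-CTRL livers, 1 mTORC1 and AMPK gene was higher in Ad-FAT10 livers, and 2 were lower between viruses under Pema. DESeq2 gave 5 membrane genes higher with Pema in Ad-FAT10 livers, 5 hydrolase genes lower between viruses under CMC and 2 further autophagy genes whose drug response differed between viruses. With only the groups compared, 5 hydrolase genes were lower with Pema in Ad-FAT10 livers and 3 mTORC1 and AMPK genes lower between viruses under Pema. Leaving out each library in turn, autophagy genes lower with Pema numbered 3 to 6 in Ad-CTRL and 3 to 5 in Ad-FAT10 livers. Hydrolase genes lower numbered 3 to 9 with Pema in Ad-FAT10 livers, 2 to 6 between viruses under CMC and 3 to 6 under Pema. Membrane genes numbered 1 to 3 lower and 3 to 5 higher with Pema in Ad-CTRL livers and 2 to 4 higher in Ad-FAT10 livers. The mTORC1 and AMPK genes numbered 1 to 3 higher with Pema in Ad-FAT10 livers, 3 to 7 lower between viruses under CMC and 2 to 5 under Pema.

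Equal replicate numbers recur in the 4 groups, and nothing in the labels says that they share an animal or a day. The deviations of same-numbered libraries from their group means correlated at -0.17 to 0.17 over 24 pairs, with 3 pairs over 0.1, and 5 of 16 libraries correlated best with their own number. With the replicate number as a block, 2 members were higher in Ad-FAT10 livers under Pema (reported 1), and Atg13 was no longer called with Pema in Ad-FAT10 livers. Atg9b had the lowest counts of the members, 3 to 23 reads per library.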
